A study of Mus musculus with 6 samples.

Results

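Tumors of the neck node were compared with tumors of the thymus in Eμ-Myc mice that keep miR-146a. The comparison used 4 of the 6 tumors in the series, chosen by their labelled tissue and genotype: neck node tumors 1 and 2 and thymic tumors 3 and 4. All 4 came from mice labelled as male, of the C57BL6 strain, with the Myc transgene and an intact miR-146a gene (146a+/+), and no treatment is given for any of them. The mice with neck node tumors were 18 and 16 weeks old and both mice with thymic tumors were 10 weeks old, so site and age cannot be told apart. Both remaining tumors of the series were thymic tumors of miR-146a-/- mice, aged 11 and 10 weeks and labelled as female. They stayed out of the main test. Their values stand beside some results, and the fits of all 6 tumors and against all 4 thymic tumors included them. The transgene places Myc under the immunoglobulin heavy chain enhancer, which is active in the B lineage, and each sample was a suspension of a whole tumor with no sorting step named. No label states that the tumors of a site came from separate litters or batches, so the p-values below measure only the spread between these tumors.

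Eμ-Myc mice develop lymphomas of B-lineage cells in lymph nodes, spleen and thymus, and a tumor that replaces an organ still holds host cells. Neutrophils carry their antimicrobial proteins in granules that are filled in sequence while the cell matures in the bone marrow: the azurophil granules with myeloperoxidase and elastase come first, the specific granules with lactoferrin, cathelicidin and lipocalin 2 follow, and the gelatinase granules come last. The nodes of the neck lie against the salivary glands, whose acinar and duct cells make large amounts of a small set of secreted proteins.

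The deposited values are RPKM, reads per kilobase of gene scaled for the depth of the library, with 1 value per gene and tumor for 38293 genes. A gene was tested if 2 or more of the 4 tumors reached an RPKM of 0.5, as 12255 genes did. RPKM values summed to 675516 and 729009 in the neck node tumors and to 788919 and 745653 in the thymic tumors. No counts were given, but low values fell on steps. In single-exon genes, 47.9% to 57.9% of 849 to 955 low values per tumor lay within 0.1% of a whole number of reads when the exon was shortened by 99 bases. With the full exon length 3.35% to 3.87% did. The steps had been found with the shortened exon, so this contrast does not test the length. The read numbers and depths given here depend on the shortened length. By the size of those steps, and if each column is the mean of 2 libraries, each scaled to the same number of reads, neck node tumor 2 was sequenced 2.72 times as deeply as neck node tumor 1, and thymic tumors 3 and 4 were sequenced 1.16 and 1.10 times as deeply. How the authors made RPKM from counts is not stated in the sources used here.

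The labels were checked against defining genes. The 4 tumors all held the B-lineage antigen Cd79a, at 410 and 550 RPKM in the neck node against 390 and 401 RPKM in the thymus. The Y-linked gene Ddx3y was present in each of them, at 17.9 to 23.04 RPKM, and also in the second miR-146a-/- tumor, labelled female, at 24.6 RPKM. Xist, which silences an X chromosome in females, was also listed in each of the 4 tumors, at 1585 to 2203 RPKM. The 5 sex-linked genes listed, Xist among them, summed to 1240070 RPKM in the first miR-146a-/- tumor. They summed to 1631 to 2257 RPKM in the 4 miR-146a+/+ tumors and to 1875 RPKM in the second miR-146a-/- tumor. The gene length behind the RPKM of Xist is not known, so its level was not read as a check of the sex labels. Thymic epithelium, which gives the organ its identity, was at or near 0 in the tumors labelled thymus: Foxn1 was listed at 0 in both, Psmb11 at 0 in both, and Prss16 at 0.127 and 0.155 RPKM, which was below the 0.385 and 0.461 RPKM of the neck node tumors. Of 9 thymic epithelium genes 8 did not pass the filter on low values, and of 12 lymph node stroma genes 10 did not.

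The thymic tumors were as far apart as tumors of different sites, and the neck node tumors were somewhat closer to each other. The neck node tumors differed by more than 1 on the log2(RPKM + 1) scale in 5.92% of the genes tested and the thymic tumors in 7.42%, while the 4 pairs across sites differed in 7.29% to 9.15%. Pearson's r over genes was 0.960 within the neck node, 0.955 within the thymus and 0.943 to 0.954 across sites, where genes are not independent replicates.

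**Figure D1:**
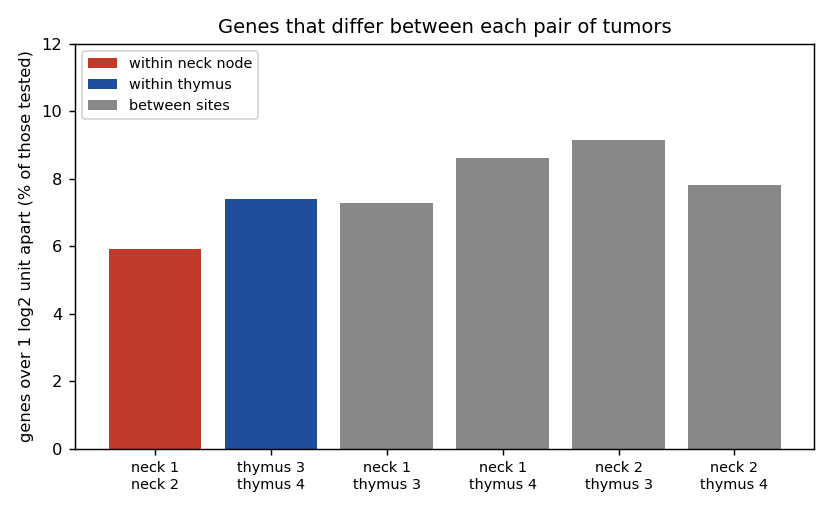
Share of the 12255 genes tested (vertical axis, percent) that lay more than 1 log2 unit apart, for each of the 6 pairs among the 4 miR-146a+/+ tumors. The pair of thymic tumors, at 7.42%, lies inside the range of the pairs across sites, 7.29% to 9.15%.

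Site was tested with limma on log2(RPKM + 1), with Benjamini-Hochberg adjustment over all 12255 genes. At an adjusted p under 0.05, 19 genes were called, which is 0.155% of those tested. Of these, 17 were higher in the neck node (0.139%) and 2 were higher in the thymus (0.0163%). At an unadjusted p under 0.05, 639 genes were higher in the neck node (5.21%) and 325 in the thymus (2.65%). In 3416 genes (27.9%) both neck node tumors lay above both thymic tumors, and in 1541 genes (12.6%) both lay below. With 2 tumors against 2, an exact two-sided permutation test of a single gene cannot go below p = 0.333, so each call rests on the spread that limma shares across genes.

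The balance of the weak differences depended on scaling. The median difference of all genes tested was 0.10 on the log2 scale, toward the neck node, and it was -0.01 with median-ratio scaling and 0.01 with quantile normalization. The share of genes with an unadjusted p under 0.05 that were higher in the neck node was 66.3%, and it was 42.0% and 48.2% under those scalings. The number of calls at an adjusted p under 0.05 was 8 without neck node tumor 1, 29 without neck node tumor 2, 16 without thymic tumor 3 and 12 without thymic tumor 4. Of the 19 genes, 7, 12, 7 and 6 were among those calls, where the lone tumor of a site is assumed to vary like the others. With no filter on low values limma called 0 of 38293 genes, with 1685 at an unadjusted p under 0.05, and a fit of all 6 tumors called 2, Bpifa2 and Smr3a.

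**Figure D2:**
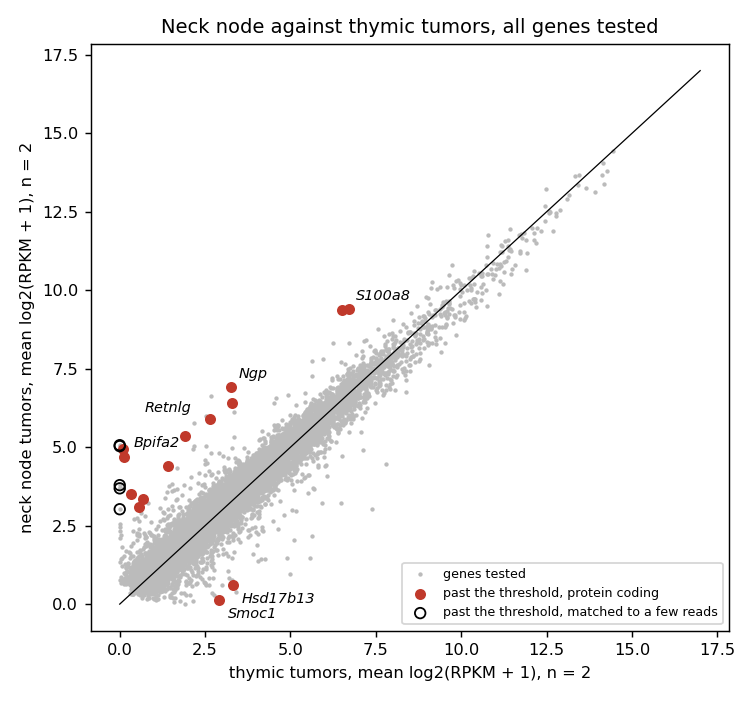
Mean log2(RPKM + 1) of the 2 neck node tumors (vertical axis) against that of the 2 thymic tumors (horizontal axis) for the 12255 genes tested, with the line of equal levels. Of the 19 genes past the adjusted threshold, 14 are protein coding (filled), 12 of them above the line and 2 below, and 5 are lincRNA models matched to a few reads (open circles) that were at 0 in the thymic tumors.

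Of the 12 protein coding genes higher in the neck node, 8 were on the list of neutrophil granule proteins. That list has 19 members, of which 18 were in the file and all 18 passed the filter. The 8 past the adjusted threshold, against 0.139% of all genes, were Ngp, Ltf, Camp, Lcn2, S100a9, S100a8, Cd177 and Mmp8. A further 8 had only an unadjusted p under 0.05, and the median difference of the list was 2.35 on the log2 scale against 0.10 for all genes. The summed level of the list was 1975 and 1848 RPKM in the neck node against 339 and 419 RPKM in the thymus. S100a8 and S100a9, proteins of the cytosol that the list includes, held most of the sum in the neck node. The miR-146a-/- thymic tumors summed to 261 and 480 RPKM, with the second above both thymic miR-146a+/+ tumors. Neck node and thymic tumors did not overlap in 17 of the 18 members, against 27.9% of all genes.

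The most abundant were S100a8 and S100a9, the subunits of calprotectin, a calcium- and metal-binding protein that fills the neutrophil cytosol. S100a8 stood at 693 RPKM in neck node tumor 1 and 656 RPKM in tumor 2, and at 103 RPKM in each thymic tumor. The neck node mean was 6.54 times the thymic mean (log2 difference 2.70 ± 0.25 SE, adjusted p = 0.0242, limma). Its neighbor S100a9 stood at 642 and 689.7 RPKM in the neck node and at 108 and 74.3 RPKM in the thymus (log2 difference 2.88 ± 0.29 SE, adjusted p = 0.0310). In both genes the tumors of a site lay close together and the groups were well apart. The genes lie side by side on chromosome 3 of GRCm38, S100a8 at chr3:90668978-90670035 and S100a9 at chr3:90692632-90695721.

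Ngp and Ltf, proteins of the specific granules, had the largest differences of the list on the log2(RPKM + 1) scale, which compresses genes of low level. By ratio of means the largest was that of Olfm4, olfactomedin 4, at 1.496 and 1.19 RPKM in the neck node against 0.0728 and 0.0257 RPKM in the thymus, a ratio of 27.3 (unadjusted p = 0.00415). Ngp, a cathelicidin-like protein of the specific granules, stood at 109 and 135 RPKM in the neck node and at 7.39 and 10.0 RPKM in the thymus. That is a ratio of means of 14.0 (log2 difference 3.67 ± 0.26 SE, adjusted p = 0.0110). Ltf, lactoferrin, which withholds iron from bacteria, stood at 40.7 and 39.2 RPKM in the neck node and at 1.82 and 4.07 RPKM in the thymus (log2 difference 3.44 ± 0.33 SE, adjusted p = 0.0302). The deficient thymic tumors were low in Ltf as well, at 1.95 and 3.47 RPKM. Camp, the cathelicidin whose processed peptide kills bacteria, stood at 85.6 and 82.0 RPKM against 10.9 and 6.94 RPKM (log2 difference 3.13 ± 0.28 SE, adjusted p = 0.0219). Lcn2, lipocalin 2, which binds bacterial siderophores, stood at 17.4 and 23.2 RPKM against 1.29 and 2.09 RPKM, an adjusted p of 0.0310. In each of Ngp, Ltf, Camp and Lcn2 both neck node tumors lay above all 4 thymic tumors of either genotype.

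Mmp8, the collagenase of neutrophils, stood at 6.81 and 8.41 RPKM in the neck node and at 0.353 and 0.601 RPKM in the thymus (log2 difference 2.54 ± 0.28 SE, adjusted p = 0.0442). Mmp9, the gelatinase that names the gelatinase granules, stood at 5.52 and 7.43 RPKM against 0.380 and 0.730 RPKM, with an adjusted p of 0.0792. Cd177, a surface glycoprotein of neutrophils, stood at 9.32 and 8.91 RPKM against 0.463 and 0.746 RPKM, with an adjusted p of 0.0343. The 2 collagen-degrading enzymes thus had like ratios, 16.0 and 11.7, on either side of the threshold.

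The azurophil granule proteins were high in the same tumors at lower levels and did not pass the adjusted threshold. Mpo, myeloperoxidase, stood at 6.10 and 5.07 RPKM in the neck node and at 0.325 and 0.367 RPKM in the thymus, with an adjusted p of 0.0579. Elane, neutrophil elastase, stood at 9.58 and 7.39 RPKM against 0.694 and 0.886 RPKM, with an adjusted p of 0.0573. The serine proteases Prtn3 and Ctsg, with ratios of means of 10.9 and 13.9, had adjusted p-values of 0.167 and 0.150. Their ratios were near those of the specific granule proteins. The 2 members with an unadjusted p over 0.05 had the lowest ratios of means, Lyz2, lysozyme, which macrophages make as well, at 271 and 116 RPKM against 93.3 and 182 RPKM with overlapping groups, and Chi3l3, at 28.7 and 33.0 RPKM against 5.13 and 24.2 RPKM.

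**Figure D3:**
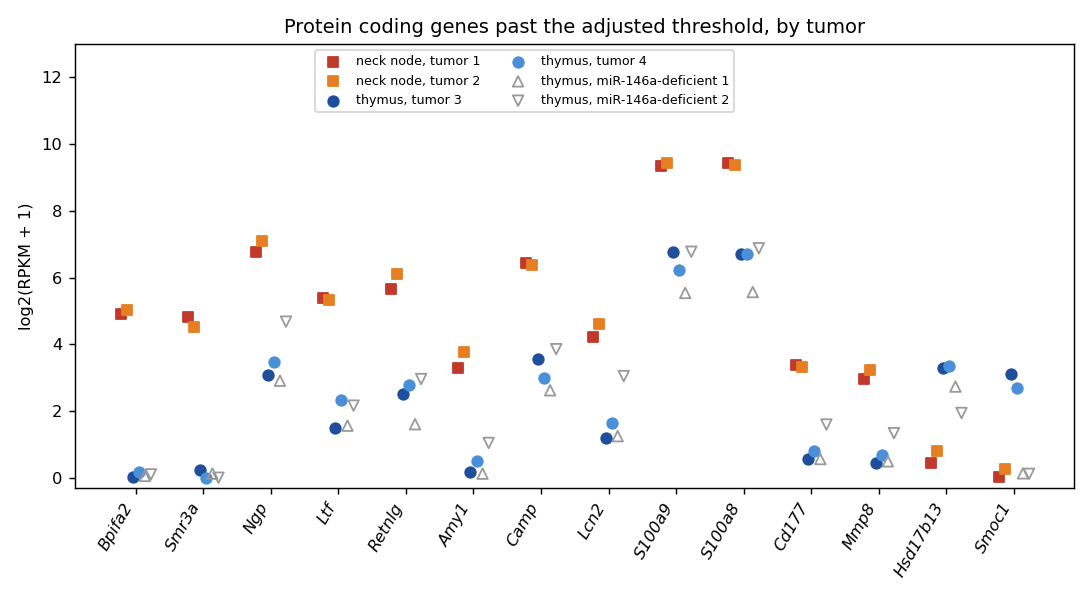
Level in each tumor, as log2(RPKM + 1) on the vertical axis, of the 14 protein coding genes past the adjusted threshold, with squares for neck node tumors, filled circles for thymic miR-146a+/+ tumors and open triangles for thymic miR-146a-/- tumors, which the test did not use. The squares lie above all other symbols in the 12 genes higher in the neck node, and Smoc1 is high in the thymic miR-146a+/+ tumors but not in the deficient ones.

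Genes of neutrophil maturation and neutrophil receptors lay the same way at lower levels. Of 23 genes listed, 19 were tested, 1 passed the adjusted threshold and 10 more had an unadjusted p under 0.05, all 11 higher in the neck node, where the shares over all genes are 0.139% and 5.21%. Low genes such as Cxcr2 and Cebpe passed the filter only through the neck node tumors, so these counts do not speak for all 23. The median difference of the list was 0.68. The gene past the adjusted threshold was Retnlg, a resistin-like protein of neutrophils, at 49.8 and 67.9 RPKM in the neck node against 4.67 and 5.90 RPKM in the thymus (log2 difference 3.24 ± 0.27 SE, adjusted p = 0.0197). Csf3r, the receptor of the growth factor G-CSF, stood at 3.87 and 4.58 RPKM against 0.355 and 0.635 RPKM (unadjusted p = 0.000491). Ly6g, the antigen by which neutrophils are stained, stood at 2.80 and 4.49 RPKM against 0.759 and 0.167 RPKM (unadjusted p = 0.00230). Cebpe, the transcription factor of the specific granules, stood at 1.73 and 1.77 RPKM against 0.265 and 0.195 RPKM, and Cxcr2, a chemokine receptor, at 2.69 and 2.59 RPKM against 0.279 and 0.251 RPKM. Padi4, a histone-citrullinating enzyme on the list, did not follow the site, at 3.63 and 16.6 RPKM in the neck node against 3.47 and 22.8 RPKM in the thymus.

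The promoters of the granule genes were read for a motif because their members were high together. The motif was TTGCNNAA, a core of the sites bound by C/EBP factors, searched on both strands in the 250 bases before each RefSeq start on GRCm38.p6. Of the 18 granule genes tested, 16 matched a RefSeq window and 5 of these held the motif (31.2%), as did 6 of 17 in the maturation list (35.3%), 1 of 10 salivary genes (10.0%) and 2 of 22 cell cycle genes (9.09%). Of all 27025 genes with a window, 10.8% held it, and of all 32851 windows, 9.56%. Of the 6 genes with the motif in the maturation list, Ly6g and Retnlg had an unadjusted p under 0.05 (limma), and Stfa1, Clec4e, Gfi1 and Slpi did not. The 4 stretches of 30 bases below show it in the granule genes where it precedes the start given by GENCODE as well, all of them past the adjusted threshold. They are written 5′ to 3′ on the strand of the gene, with the motif in capitals, and in Ltf the motif is on the opposite strand.
Ltf, chr9:111019206-111019235, plus strand: aggcaggcctaTTGGGCAAtagggtggggc
Ngp, chr9:110419659-110419688, plus strand: gtcctggtttaTTGCCCAAacctccttgcc
Mmp8, chr9:7558399-7558428, plus strand: ttaggcagaagTTGCTCAAgatgtagcttt
S100a9, chr3:90695939-90695968, minus strand: ggtaggctgtcTTGCTTAAgatttgggcgg
The motif lay 68, 131, 12 and 229 bases before the RefSeq start in these genes, in that order. A match is a description of these letters and was not tested as a binding site. Ltf, Ngp and Mmp8 lie on chromosome 9 with Camp, and these 4 are the members of the granule list on that chromosome.

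Other blood cells that travel with neutrophils differed less. Ly6c2, an antigen of monocytes that neutrophils and some lymphocytes also carry, stood at 42.6 and 36.3 RPKM in the neck node and at 7.66 and 11.0 RPKM in the thymus (log2 difference 1.99, adjusted p = 0.0904). It was the 1 of 6 monocyte genes tested with an unadjusted p under 0.05. Over all genes, 5.21% were higher in the neck node at that p. Ccr2, the receptor by which monocytes leave the marrow, stood at 7.59 and 1.71 RPKM against 2.89 and 1.61 RPKM with overlapping groups. Prg2, the major basic protein of eosinophils, was the 1 of 11 mast cell, basophil and eosinophil genes that passed the filter, at 4.22 and 3.08 RPKM against 0.363 and 1.03 RPKM (unadjusted p = 0.00326). Il1b, the inflammatory cytokine interleukin 1β, stood at 3.35 and 2.21 RPKM against 0.461 and 1.01 RPKM (unadjusted p = 0.0110). Of 15 inflammatory genes listed with it, 11 did not pass the filter and 4 were tested. At an unadjusted p under 0.05, 1 of these was higher in the neck node (Il1b) and 1 was lower (Saa3). Over all genes the shares were 5.21% and 2.65%. In bulk RNA, fewer cells of a type and less RNA per cell cannot be told apart, and this holds for every cell type list here.

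The number of granule genes past the adjusted threshold moved with the settings. The list had 4 members past the adjusted threshold with median-ratio scaling, 3 with quantile normalization, 12 against all 4 thymic tumors, and 1 to 4 when 1 tumor was left out, the lowest without neck node tumor 1. In each of these fits 16 or 17 of the 18 members had an unadjusted p under 0.05, higher in the neck node, and all 18 differences were positive except 1 without neck node tumor 1 and 1 without thymic tumor 3. Over 18 other settings, Ngp passed the adjusted threshold in 16, Ltf in 15, Retnlg in 14, S100a8 and Camp in 12, Cd177 in 11, S100a9 and Lcn2 in 10 and Mmp8 in 7. These counts include the main fit read at a threshold of 0.1, which every gene called at 0.05 passes by construction.

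Secreted proteins of the salivary glands formed the other group that separated the sites. Of 28 salivary genes listed, 18 did not pass the filter on low values and 10 did. Of those 10, 3 were higher in the neck node at an adjusted p under 0.05 (Bpifa2, Smr3a and Amy1), 5 more had an unadjusted p under 0.05, and both neck node tumors lay above both thymic tumors in 9. Over all genes these shares are 0.139%, 5.21% and 27.9%. Since low genes pass the filter through the neck node tumors, these counts do not speak for all 28, whose median difference was 0.013. The summed level of the 28 was 91.9 and 78.6 RPKM in the neck node, 1.52 and 1.79 RPKM in the thymus, and 1.005 and 3.09 RPKM in the deficient thymic tumors.

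Bpifa2, the parotid secretory protein, which binds bacterial lipopolysaccharide in saliva, stood at 28.8 and 31.4 RPKM in the neck node and at 0.0159 and 0.131 RPKM in the thymus. Its gene lies at chr2:154008265-154016079 (GRCm38), on the plus strand. The ratio of means was 409 (log2 difference 4.86 ± 0.27 SE, adjusted p = 0.00466, limma). By the steps between low values these levels correspond to about 1409 and 4191 reads in the neck node tumors against 1 and 7 in the thymic tumors. Smr3a, a submaxillary gland androgen-regulated protein, stood at 27.3 and 22.0 RPKM in the neck node, at 0.175 RPKM in thymic tumor 3 and at 0 in thymic tumor 4 (log2 difference 4.56 ± 0.28 SE, adjusted p = 0.00680). Amy1, salivary amylase, which starts the digestion of starch, stood at 8.69 and 12.5 RPKM against 0.119 and 0.408 RPKM (log2 difference 3.19 ± 0.31 SE, adjusted p = 0.0302). All 3 were high in both neck node tumors and at 0.408 RPKM or less in the 4 thymic tumors of either genotype, except for 1.06 RPKM of Amy1 in the second deficient tumor.

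The next salivary genes were lower and more uneven between the neck node tumors. Dcpp1, a demilune cell and parotid protein, stood at 7.35 and 2.64 RPKM and was listed at 0 in all thymic tumors (unadjusted p = 0.000875, adjusted p = 0.200). Pip, the prolactin-induced protein of saliva, stood at 4.86 and 3.23 RPKM, Cst10, a cystatin, at 2.09 and 1.10 RPKM, and both were listed at 0 in all thymic tumors. Car6, the secreted carbonic anhydrase of saliva, stood at 2.13 and 3.01 RPKM against 0 and 0.0760 RPKM. Dcpp1, Pip and Cst10 were higher in neck node tumor 1 than in tumor 2, while Bpifa2, Amy1 and Car6 were higher in tumor 2. Klk1, a kallikrein of duct cells, was high in neck node tumor 1 only, at 5.60 RPKM against 0.501 RPKM in tumor 2 and 0.385 and 0.0450 RPKM in the thymus, and Egf, the epidermal growth factor, overlapped between sites at 0.303 and 0.672 RPKM against 0.514 and 0.729 RPKM.

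Several genes of gland cells and epithelium were at or near 0 in the same tumors. Aqp5, the water channel of acinar cells, was listed at 0 and 0.0373 RPKM in the neck node, and Muc19, a salivary mucin, at 0 and 0.00226 RPKM. Of 15 surface epithelium genes, 13 did not pass the filter, with Epcam at 0.118 and 0.250 RPKM and Krt5 and Krt14 at 0 in both neck node tumors. The thymic tumors held more Epcam, 0.319 and 0.351 RPKM. The 2 epithelium genes that passed overlapped between sites, Krt18 at 2.83 and 2.88 RPKM against 4.00 and 2.06 RPKM and Spint2 at 23.9 and 12.2 RPKM against 16.3 and 13.6 RPKM. Of 6 thyroid genes none passed the filter, with Tg at 0.0685 and 0.0902 RPKM in the neck node against 0.162 and 0.215 RPKM in the thymus. Of 16 skeletal muscle genes 2 passed it and neither had an unadjusted p under 0.05: Mylpf at 4.09 and 3.16 RPKM against 2.63 and 1.43 RPKM, without overlap, and Tnni2 at 5.98 and 5.89 RPKM against 7.01 and 2.82 RPKM. The part of gland tissue in the salivary transcripts was not tested. Over the same 18 other settings, the threshold of 0.1 among them, Bpifa2 and Smr3a passed the adjusted threshold in 17 each and Amy1 in 10. The exception for the first pair was the fit with no filter.

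**Figure D4:**
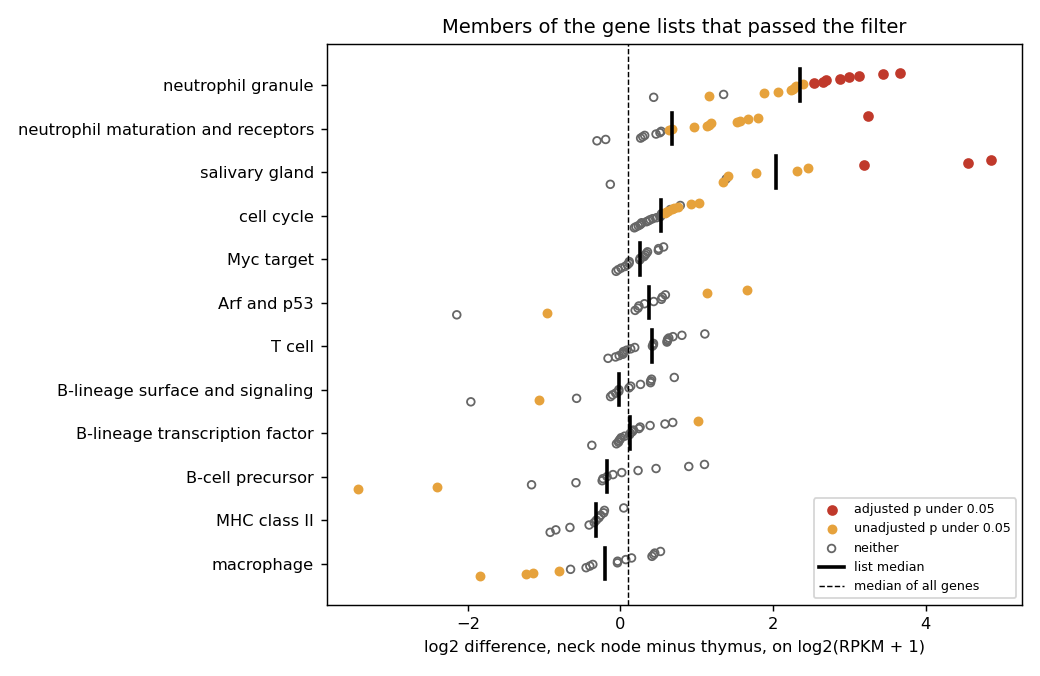
Difference of each gene that passed the filter (horizontal axis, log2 scale, neck node minus thymus) for 12 gene lists, with filled points for an adjusted or unadjusted p under 0.05, thick bars for list medians and a dashed line for the median of all genes, 0.10. The granule list, with a median of 2.35, lies to the right and the 25 cell cycle genes all lie above 0, while the salivary points are only the 10 members that passed the filter, out of 28 listed with a median of 0.013.

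The 5 remaining genes higher in the neck node were lincRNA models with very few reads. Gm11532 was listed at 35.3 and 29.9 RPKM in the neck node and at 0 in both thymic tumors, with an adjusted p of 0.00466, and CT030702.1 was listed at 21.8 and 46.1 RPKM against 0 and 0. By the steps between low values these corresponded to 3 and 6 reads over an effective length of 3 bases for Gm11532, and to 1 and 6 reads over 2 bases for CT030702.1. Gm11766 (1 and 3 reads over 3 bases), AC110573.1 (1 and 3 reads over 6 bases) and AC154766.1 (1 and 1 read over 2 bases) were of the same kind. These differences thus rest on 1 to 6 reads in each neck node tumor against 0 in the thymic tumors. By the same steps neck node tumor 2 was sequenced 2.72 times as deeply as neck node tumor 1. Reads this few cannot show that a gene was absent from the thymic tumors. Among all genes tested, 65 were matched to at most 15 reads over at most 10 bases, 56 of them lincRNAs, and 11 of the 24 genes with the largest differences in either direction were among them. Without these models, 14 genes were called, which were the 14 protein coding genes of the 19.

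Fewer genes were higher in the thymus, and they belonged to no single list. Hsd17b13, an enzyme of lipid droplets best known from liver, stood at 0.348 and 0.735 RPKM in the neck node and at 8.70 and 9.27 RPKM in the thymus, a ratio of means of 16.6 (log2 difference -2.71 ± 0.28 SE, adjusted p = 0.0362). The deficient thymic tumors lay between, at 5.64 and 2.84 RPKM. Smoc1, a secreted calcium-binding protein of the matrix, stood at 0.0199 and 0.202 RPKM in the neck node and at 7.68 and 5.42 RPKM in the thymus (log2 difference -2.75 ± 0.30 SE, adjusted p = 0.0395). The deficient thymic tumors held 0.0949 and 0.0841 RPKM of Smoc1, within the range of the neck node tumors. The genes lie at chr5:103955440-103977410 (Hsd17b13) and chr12:81026808-81186414 (Smoc1) of GRCm38. Over the same 18 other settings, the threshold of 0.1 among them, Hsd17b13 passed the adjusted threshold in 10 and Smoc1 in 6.

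Of the genes with the largest differences toward the thymus, several missed the adjusted threshold, with the tumors of 1 site far apart. Saa3, an acute phase protein that macrophages and fibroblasts make, stood at 0.994 and 0.894 RPKM in the neck node, 16.7 and 56.2 RPKM in the thymus and 38.7 and 86.8 RPKM in the deficient thymic tumors (log2 difference -4.03, adjusted p = 0.0792). Ly6d, an antigen of B-cell progenitors, stood at 20.6 and 21.7 RPKM against 138 and 350.1 RPKM (log2 difference -3.32, adjusted p = 0.0769). Arg1, arginase, stood at 0.0320 and 0.622 RPKM against 3.87 and 21.6 RPKM, and Cdkn1c, an inhibitor of cyclin-dependent kinases, at 0.0594 and 5.22 RPKM against 19.3 and 12.7 RPKM. Reln, the secreted protein reelin, stood at 1.65 and 31.4 RPKM against 47.2 and 75.1 RPKM, and GM7120 at 0.303 and 4.55 RPKM against 9.62 and 28.1 RPKM. In Arg1, Cdkn1c, Reln and GM7120 neck node tumor 1 was the lowest of the 4 tumors by a wide margin.

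Macrophage genes leaned toward the thymus in part. Of 27 listed, 16 were tested and none passed the adjusted threshold, while 4 had an unadjusted p under 0.05, all lower in the neck node, with 2.65% of all genes in that direction. The median of the list was -0.20, and it was 0.11 without thymic tumor 4. The 4 were the complement genes C1qa, at 4.92 and 4.71 RPKM against 9.25 and 15.1 RPKM, and C1qb, at 8.87 and 7.46 RPKM against 15.2 and 27.4 RPKM, the scavenger receptor Marco, and Cd5l, at 0.635 and 0.542 RPKM against 1.55 and 11.7 RPKM. The deficient thymic tumors held still more C1qa, 22.9 and 27.7 RPKM. Both thymic tumors lay above both neck node tumors in 7 of the 16 genes, against 12.6% of all genes, and the reverse held in 2. Against all 4 thymic tumors of both genotypes, 14 of the 16 differences were negative. Csf1r, the receptor of the growth factor M-CSF, overlapped between sites at 5.41 and 2.42 RPKM against 1.64 and 3.67 RPKM. Among matrix genes, Mgp, the matrix Gla protein, stood at 0.833 and 0.758 RPKM against 3.89 and 16.2 RPKM (limma, unadjusted p = 0.00510). It was the 1 of 7 fibroblast and matrix genes tested with an unadjusted p under 0.05. The median of that list was -0.47, and it was 0.18 without thymic tumor 4. Pecam1, 1 of 2 endothelium genes tested, stood at 9.51 and 10.2 RPKM against 13.9 and 22.2 RPKM (limma, unadjusted p = 0.0373). Of 16 matrix and 15 endothelium genes listed, 9 and 13 did not pass the filter. Over all genes, 2.65% were lower in the neck node at that p.

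The B-lineage lists held few differences between sites. All 15 genes of B-lineage surface and signaling and all 17 B-lineage transcription factors were tested, none passed the adjusted threshold, and the medians of the lists were -0.02 and 0.13 against 0.10 for all genes. Pax5, which fixes B-cell identity, stood at 22.6 and 37.8 RPKM in the neck node against 27.0 and 32.6 RPKM in the thymus. Pou2af1, a coactivator of immunoglobulin genes, stood at 285 and 281 RPKM against 209.8 and 318 RPKM. In the surface and signaling list 7 differences were positive and 8 negative. The most negative was that of Blk, a kinase of B-cell receptor signaling, at 3.36 and 30.5 RPKM against 45.2 and 44.0 RPKM (log2 difference -1.96, unadjusted p = 0.0514), with neck node tumor 1 far below the rest. Fcrla, an Fc receptor-like protein of B cells, was lower in the neck node, at 75.9 and 91.9 RPKM against 188 and 166 RPKM (unadjusted p = 0.00393). Pou2f2, the factor Oct2, was higher, at 9.23 and 14.8 RPKM against 6.83 and 4.05 RPKM (unadjusted p = 0.0248). The 12 immunoglobulin constant region genes summed to 2158 and 2399 RPKM in the neck node against 1869.6 and 2841 RPKM in the thymus, led by Ighm in all 4 tumors.

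Within the precursor list the recombinase genes stood apart. Rag1 stood at 0.640 and 3.63 RPKM in the neck node and at 14.9 and 55.1 RPKM in the thymus (log2 difference -3.44 ± 0.70 SE, unadjusted p = 0.00210, adjusted p = 0.316). Rag2, its partner in cutting immunoglobulin and T-cell receptor genes, stood at 0.219 and 0.869 RPKM against 5.21 and 9.33 RPKM (unadjusted p = 0.000493, adjusted p = 0.150). The groups did not overlap in either gene. The deficient thymic tumors were low in both, with Rag1 at 2.27 and 0.0813 RPKM and Rag2 at 1.52 and 0.00814 RPKM. The other 11 precursor genes tested had an unadjusted p over 0.05. Over all genes, 2.65% were lower in the neck node at an unadjusted p under 0.05. The median of the precursor list was -0.18, and it was 0.28 against all 4 thymic tumors and 0.19 without thymic tumor 4. Vpreb3, a partner of the immunoglobulin chains, stood at 215 and 242 RPKM against 191 and 311 RPKM, and Myb, a transcription factor of progenitors, at 59.7 and 56.3 RPKM against 41.5 and 58.4 RPKM. The late B-lineage genes Igj, at 21.2 and 6.21 RPKM against 1.03 and 3.94 RPKM, and Derl3, at 7.75 and 21.03 RPKM against 2.57 and 2.75 RPKM, were the 2 of 7 plasma cell genes tested with an unadjusted p under 0.05, both higher in the neck node, against 5.21% of all genes. The other 5 did not pass, 3 with positive and 2 with negative differences (Sdc1 and Irf4).

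Cell cycle genes lay toward the neck node by a small amount each. All 25 listed were tested and none passed the adjusted threshold, while 8 had an unadjusted p under 0.05, against 5.21% of all genes in that direction. All 25 had a positive difference, with a median of 0.53 against 0.10 for all genes, and both neck node tumors lay above both thymic tumors in 22, against 27.9% of all genes. With median-ratio scaling all 25 remained positive, with a median of 0.39 against -0.01 for all genes, and 3 had an unadjusted p under 0.05. Without neck node tumor 1, 24 were positive, and without thymic tumor 4, 23 were. Plk1, a kinase of mitosis, stood at 46.6 and 53.2 RPKM in the neck node against 24.8 and 23.02 RPKM in the thymus (log2 difference 1.03, adjusted p = 0.427). Top2a, topoisomerase II, stood at 141 and 139 RPKM against 77.8 and 68.5 RPKM, and Mki67, the antigen Ki-67, at 192 and 188 RPKM against 134 and 94.2 RPKM. Mcm6, a subunit of the replicative helicase, stood at 213 and 183 RPKM against 128 and 133 RPKM. Mki67 in the deficient thymic tumors, at 185 and 313 RPKM, was near or above the neck node level.

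In the main fit Myc targets and p53 genes lay mostly toward the neck node. Of 16 Myc targets none passed either threshold and 14 had a positive difference. Their median was 0.26, against 0.10 for all genes. That median was 0.11 with median-ratio scaling, where 9 of the 16 were positive. It was 0.31 with quantile normalization, where 15 were. Of 12 Arf and p53 genes tested none passed the adjusted threshold. Of these, 10 had a positive difference, and the list median was 0.38. At an unadjusted p under 0.05, 2 were higher and 1 was lower in the neck node, against 5.21% and 2.65% of all genes. In the Arf and p53 list the p53 target Pmaip1, which encodes the cell death protein Noxa, stood at 9.93 and 10.3 RPKM in the neck node against 2.67 and 2.37 RPKM in the thymus (unadjusted p = 0.000499, adjusted p = 0.150). Cdkn1a, the p53 target p21, stood at 2.60 and 3.08 RPKM against 0.548 and 0.976 RPKM (unadjusted p = 0.00655). Trp53inp1 went the other way, at 21.01 and 21.5 RPKM against 30.4 and 59.4 RPKM (unadjusted p = 0.0278). Cdkn2a, the Arf locus, did not follow the site: thymic tumor 4 held 179.9 RPKM, against 0.476 RPKM in thymic tumor 3 and 2.44 and 2.96 RPKM in the neck node.

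**Figure D5:**
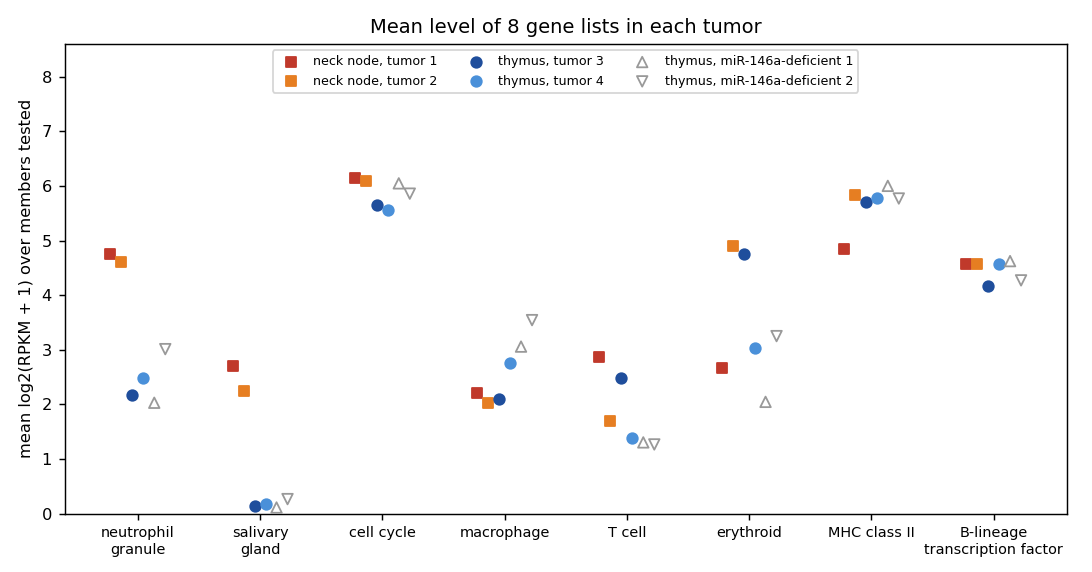
Mean log2(RPKM + 1) over the members tested of 8 gene lists (vertical axis) in each tumor, with squares for neck node, filled circles for thymic miR-146a+/+ and open triangles for thymic miR-146a-/- tumors. The squares stand clear of the filled circles in the granule and cell cycle lists, while the T cell, erythroid and MHC class II lists differ as much between tumors of 1 site as between sites. The salivary squares stand clear too, but that mean covers only the 10 of 28 listed members that passed the filter. Low members passed it through the neck node tumors.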

How the data were processed

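RNA of 6 whole tumors was sequenced, with 2 technical libraries per tumor. According to the submitters' processing notes the tools were STAR 2.3.0, HTSeq 0.5.4p3 and DESeq 1.12.1, on GRCm38 (mm10). The deposited file holds RPKM made by the authors, 1 value per gene and tumor. No counts were given, so no count model was run. Values were tested as log2(RPKM + 1), a pseudocount of 1 that understates changes of low genes, with limma 3.58.1 (trend, two-sided) in R 4.3.3. Named genes are those past the adjusted threshold, the 12 largest non-overlapping differences in each direction with an unadjusted p under 0.05, and list members, at least the 2 most abundant and the 2 most different of each list described. Other members were named after their values were seen, and some genes under the rule are not reported here. Members and lists were chosen with earlier results of these data known. Coordinates are from GENCODE M21 and promoters from RefSeq, both on GRCm38. Alternatives changed the filter, pseudocount, scaling, variance model and tumors.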

Additional observations from a re-analysis of the deposited data

How the results depend on the processing

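No paired analysis was possible because the neck node tumors carry the label numbers 1 and 2 and the thymic tumors 3 and 4, so no number is shared. The 19 calls (17 higher in the neck node, 2 in the thymus) became 0 (0 and 0) with no filter, 11 (10 and 1) with quantile normalization, 2 (2 and 0) in the fit of all 6 tumors and 32 (27 and 5) at a threshold of 0.1. With 1 tumor left out the calls ranged from 8 to 29, those higher in the neck node from 8 to 17 and those higher in the thymus from 0 to 12. The calls higher in the thymus became 1 with a mean RPKM of at least 0.5, with a pseudocount of 5 and with median-ratio scaling, 0 with a pseudocount of 0.1, and 5 over protein coding genes alone. The threshold of 0.1, the fit without models of a few reads and the protein coding fit were chosen after seeing the data. The granule median of 2.35 became 3.28 with a pseudocount of 0.1 and 1.26 with 5, and ranged from 2.33 to 2.52 with 1 tumor left out. The salivary median of 2.04 became 4.65 and 0.72 with those pseudocounts, 0.013 over all 28 listed members, and ranged from 1.91 to 2.503. The cell cycle median of 0.53 became 0.39 with median-ratio scaling and 0.34 against all 4 thymic tumors, and ranged from 0.49 to 0.55. None of the 19 genes, and none of the other named genes with an unadjusted p under 0.05, changed direction in a setting in which it was compared. The cause of these shifts was not tested. The precision of every comparison is limited by the 2 tumors per site, and age goes with site.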

Other observations

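Several cell type lists differed between tumors in a way that did not follow the site. T cell genes were high in neck node tumor 1 and thymic tumor 3: the 25 listed summed to 174 and 58.6 RPKM in the neck node against 169 and 51.3 RPKM in the thymus. Trbc2, a constant region of the T-cell receptor, stood at 38.8 and 10.5 RPKM against 56.1 and 7.15 RPKM, and Cd8a, the coreceptor of cytotoxic T cells, at 4.398 and 1.65 RPKM against 3.32 and 0.850 RPKM. None of the 19 T cell genes tested had an unadjusted p under 0.05. Their median difference was 0.42, and it was -0.18 without neck node tumor 1 and 1.00 without thymic tumor 3.

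Red cell genes were high in another pair, neck node tumor 2 and thymic tumor 3, where the erythroid list summed to 319.5 and 243 RPKM against 40.4 and 58.2 RPKM in the others. Hba-a1, an α-globin gene, stood at 13.5 and 148 RPKM in the neck node against 97.7 and 25.01 RPKM in the thymus. The MHC class II genes were low in neck node tumor 1 alone, with a sum of 735 RPKM against 1411 to 1725 RPKM in the other 3 tumors. Cd74, the invariant chain that accompanies these molecules, stood at 259 RPKM there against 772, 491 and 630.3 RPKM. Ms4a1, the antigen CD20, was also lowest in that tumor, at 31.1 RPKM against 164, 114 and 53.8 RPKM.

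Platelet genes were high in thymic tumor 4, where Pf4 stood at 7.93 RPKM against 0.308 to 0.797 RPKM in the other 3 tumors. The homing receptor Cxcr4, at 92.1 and 126 RPKM in the neck node against 92.1 and 151 RPKM in the thymus, did not pass an unadjusted p of 0.05. Of the 19 homing and adhesion genes tested, Itgal and Spn had an unadjusted p under 0.05, both higher in the neck node, against 5.21% of all genes. With median-ratio scaling 1 of the 19 was higher and 2 were lower at that p. B2m, the light chain of MHC class I, stood at 782 and 670.3 RPKM in the neck node against 425 and 407 RPKM in the thymus (limma, unadjusted p = 0.0259, adjusted p = 0.601).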
